A study of Mus musculus with 4 samples.

Results

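The costamere, dystroglycan and focal adhesion genes described here are 32 autosomal genes that link the sarcomere, the muscle membrane and the extracellular matrix. They were chosen by name for their function, with no rule on measured values, although earlier results of these data were known, and all 32 were found among the 20807 autosomal protein-coding genes of the annotation. Phosphorylation of histone 3 at serine 10 (H3S10ph) was mapped by chromatin immunoprecipitation and sequencing (ChIP-seq) in gastrocnemius, the large calf muscle. The 4 samples were 2 of stimulated muscles and 2 of unstimulated muscles of the other leg, each a pool from 6 male C57BL/6 mice aged 5 months. Anaesthesia was by Zoletil (10 mg/kg) together with xylazine (20 mg/kg), and the stimulated muscles performed 50 eccentric contractions, that is, contractions while being lengthened. Each was evoked at 100 Hz for 600 ms, with a pull at 40 mm/s over 30° that began 200 ms into the stimulus and with 30 s between contractions. According to the study's methods the unstimulated muscles came from the same animals, though no label says which samples share them, and muscle was taken and frozen directly at the end of the protocol. Because whole muscle was pooled, a call cannot be assigned to muscle fibres or to other cells, and more nuclei with the mark cannot be told apart from more mark in each nucleus.

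Costameres are rib-like assemblies that couple the outermost sarcomeres of a fibre to its membrane and matrix. The dystrophin-glycoprotein complex and the integrin-talin-vinculin system work there side by side, and inherited loss of many of their proteins causes muscular dystrophy or myopathy. Eccentric contraction loads these links heavily. H3S10ph is laid down in interphase by stress-activated kinases at genes that are being switched on, and in dividing cells by mitotic kinases along whole chromosomes.

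The deposited list of each sample gives broad peaks, stretches of the mm10 genome where the immunoprecipitated reads exceed the background. There were 9094 peaks in unstimulated replicate 1, 32740 in unstimulated replicate 2, 10901 in stimulated replicate 1 and 40683 in stimulated replicate 2. Replicate 2 thus had the longer list in both conditions. The number of reads is unknown, since the lists hold none, and the absence of a peak means that no call was made, not that the mark was absent. Unstimulated replicate 1 stood apart. It held 522 peaks on chromosome X and 0 on chromosome Y, where the other 3 lists held 16 to 19 and 6 to 7, which goes against its label as male tissue, so the counts of genes by condition are also given without it. With 2 samples against 2, a permutation test allows no p under 0.33, and none is given: values are set beside the spread between replicates and beside other genes.

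Long genes collect more peaks, and the costamere genes are long, from 6.3 to 1092.7 kb with a median of 102.8 kb, against a median of 17.6 kb for all genes. Each was therefore set beside the 300 autosomal protein-coding genes nearest to it in length, and "genes of like length" below means the average over these neighbours, summed over the 32 genes. This is a description with no test. The tissue label was checked on 7 skeletal muscle genes, among them *Acta1*, *Ckm* and *Myh4*. Peaks lay on 2, 5, 4 and 5 of them in unstimulated replicates 1 and 2 and stimulated replicates 1 and 2. Genes of their length would give 0.29, 1.32, 0.627 and 2.23, and *Mylpf* had none in any list. Of all genes, 12.2%, 32.9%, 16.9% and 44.6% had a peak in these lists. The 7 genes were covered over 2233, 17777, 9840 and 21712 bp, most of it on *Myh4*, beside 155, 860, 350 and 1696 bp for genes of like length. In stimulated replicate 2 a peak also lay on 4 of 4 endothelial genes, beside 3.16 for genes of like length. The bare number of genes with a peak thus does not single out muscle in that list. Beside genes of like length it was 5 against 2.23 for muscle. For all 20 marker genes of other cell types it was 10 against 12. In covered length the endothelial genes had 4996 bp there, beside 4912 bp for genes of like length.

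Only 2 places on the 32 genes carried overlapping peaks of both stimulated samples, in *Sgca* and *Ank1*, and their sequences are shown for that reason. *Flnc* is added, as the gene whose peak had the highest −log10 p of all peaks on the 32 genes, a choice made after the values were seen. Each sequence is given 5′ to 3′ on the strand of its gene, from the RefSeq mm10 genome. They lie at chr11:94973143-94973438 (minus strand, 37 coding bases of *Sgca* followed by intron), chr8:23146765-23147064 (plus strand, intron of *Ank1*) and chr6:29434193-29434492 (plus strand, intron of *Flnc*).
Sgca: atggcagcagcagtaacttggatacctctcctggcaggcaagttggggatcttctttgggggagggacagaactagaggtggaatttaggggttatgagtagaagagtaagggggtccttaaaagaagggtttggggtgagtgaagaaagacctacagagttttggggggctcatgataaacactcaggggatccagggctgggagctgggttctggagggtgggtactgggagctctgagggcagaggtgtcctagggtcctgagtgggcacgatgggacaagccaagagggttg
Ank1: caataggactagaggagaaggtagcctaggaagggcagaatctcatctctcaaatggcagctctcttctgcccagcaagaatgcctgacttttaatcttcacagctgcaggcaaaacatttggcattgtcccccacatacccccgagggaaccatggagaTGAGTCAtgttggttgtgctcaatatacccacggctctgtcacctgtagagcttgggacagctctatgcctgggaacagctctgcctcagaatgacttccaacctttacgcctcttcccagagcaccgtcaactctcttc
Flnc: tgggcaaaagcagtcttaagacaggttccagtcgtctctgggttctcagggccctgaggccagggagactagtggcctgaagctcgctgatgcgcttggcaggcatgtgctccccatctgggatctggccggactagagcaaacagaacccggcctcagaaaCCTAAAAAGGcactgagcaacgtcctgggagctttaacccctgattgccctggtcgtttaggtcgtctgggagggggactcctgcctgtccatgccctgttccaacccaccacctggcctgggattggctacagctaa
Capitals mark matches to 3 motifs searched on both strands in which a match is uncommon: the SRF box (the CArG box bound by serum response factor), AP-1 (TGANTCA, bound by Fos and Jun dimers) and MCAT (GGAATG, bound by TEAD factors). The *Flnc* window held 1 SRF box, which 1.69% of the 92703 windows of 300 bp centred on all autosomal peaks also held. The *Ank1* window held 1 AP-1 match, against 8.93% of all windows. The *Sgca* window held none of the 3, and MCAT, found in 16.1% of all windows, was in none of the printed sequences. The E-box (CANNTG, bound by MyoD and related factors) is too frequent to mark, at 80% of all windows; it matched 4 times in *Ank1*, 3 times in *Flnc* and not in *Sgca*. No match of one motif overlapped a match of another in these sequences, and a match is a run of letters, not a bound site.

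The question was whether the genes of the costamere carry more H3S10ph directly after contraction. Most of them carried peaks in the long lists of both conditions, and replicate 2 gave the higher number in stimulated and in unstimulated muscle. A peak lay on 12 of the 32 genes in unstimulated replicate 1, where 12.2% of all genes had one, and on 20 in unstimulated replicate 2, where 32.9% did. In stimulated muscle it lay on 17 in replicate 1, beside 16.9% of all genes, and on 27 in replicate 2, beside 44.6%. Genes of like length would give 11.3, 21.6, 14.2 and 24.3 in the same order. In the number of genes with a peak, the 4 lists lay between 0.926 and 1.2 times genes of like length when all deposited peaks were used. The range depended on the threshold. At a −log10 p of at least 2.5 unstimulated replicate 2 turned from 0.926 to 1.36 and stimulated replicate 2 rose from 1.11 to 1.56. At 3 the 4 lists lay at 0.846, 0.509, 0.724 and 1.89, from 1 to 6 genes each.

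The number and length of peaks on these genes set stimulated replicate 2 apart from the other 3 lists. The 32 genes held 27 peaks in unstimulated replicate 1, 98 in unstimulated replicate 2, 33 in stimulated replicate 1 and 186 in stimulated replicate 2. Over genes of like length this was 1.14, 1.16 and 1.17 times in the first 3 lists and 1.63 times in stimulated replicate 2. Peaks covered 15.8, 52.6, 16.8 and 123.9 kb of the gene bodies, or 0.249%, 0.828%, 0.264% and 1.95% of their length. All autosomal protein-coding genes were covered to 0.203%, 0.773%, 0.269% and 1.35%. The widest distance from other genes was thus in 1 stimulated sample, and the other stimulated sample lay with the unstimulated ones.

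**Figure D1:**
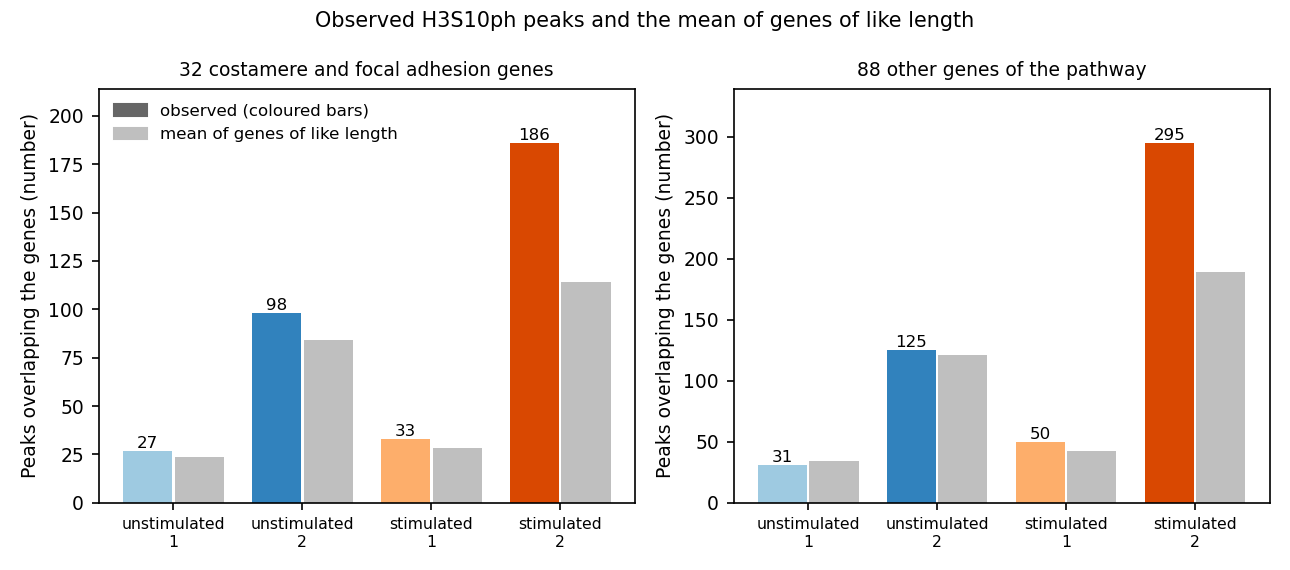
Number of H3S10ph peaks (vertical axis) overlapping the 32 costamere and focal adhesion genes (left) and 88 other genes of the same pathways (right) in each of the 4 lists (horizontal axis). Coloured bars are the observed numbers and grey bars the mean of genes of like length; there is 1 value per list and no error bar. The gap between colour and grey is wide only for stimulated replicate 2, with 186 peaks against 114 on the left and 295 against 189 on the right.

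Between the conditions, 16 ± 5.66 genes (SD, n = 2) had a peak in unstimulated and 22 ± 7.07 (SD, n = 2) in stimulated muscle, a ratio of 1.38. Within replicate 1 the ratio was 1.42 and within replicate 2 it was 1.35. For all genes the ratio was 1.36. Over genes of like length, the numbers were 1.06 and 0.926 times in unstimulated and 1.2 and 1.11 times in stimulated replicates 1 and 2. The number of peaks was 62.5 ± 50.2 (SD, n = 2) in unstimulated and 109.5 ± 108 (SD, n = 2) in stimulated muscle, a ratio of 1.75, beside 1.51 for all genes. The covered length was 34.23 ± 26 kb (SD, n = 2) and 70.31 ± 75.7 kb (SD, n = 2), a ratio of 2.05, beside 1.65 for all genes and 1.41 for genes of like length. All 3 differences were smaller than the SD of the stimulated samples, and the conditions overlapped. Stimulated replicate 1 lay below unstimulated replicate 2 in genes with a peak, in peaks and in covered length. Within replicate 1 the ratio of peaks was 1.22, beside 1.27 for all genes. That of covered length was 1.06, beside 1.32 for all genes and 1.24 for genes of like length. These genes thus lay below all genes in both measures, and below genes of like length in covered length. In peaks they stood at 1.14 times genes of like length in unstimulated and 1.17 times in stimulated replicate 1, so they did not lie below them there. Within replicate 2 the ratio of peaks was 1.9, beside 1.57 for all genes. That of covered length was 2.35, beside 1.74 for all genes and 1.46 for genes of like length, so these genes lay above in both measures. Their peaks stood at 1.16 and 1.63 times genes of like length in unstimulated and stimulated replicate 2. Without unstimulated replicate 1 the ratios were 1.1 for genes, 1.12 for peaks and 1.34 for covered length. Without stimulated replicate 2 the direction turned for peaks, to 0.528, and for covered length, to 0.49, and the ratio of genes was 1.06. Without unstimulated replicate 2 the ratios of peaks and covered length were 4.06 and 4.44, and without stimulated replicate 1 they were 2.98 and 3.62.

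Gene by gene, 16 of the 32 had a peak in both stimulated lists, as did 13.0% of all genes, and 10 had one in both unstimulated lists, as did 8.36% of all genes. Genes of like length would give 13 and 10.1. Both stimulated lists but neither of the unstimulated lists had a peak on 3 genes, *Sgca*, *Tln1* and *Sptb*, beside 2.88% of all genes and 0.97 genes of like length. The mirrored pattern, both unstimulated lists and neither stimulated list, was found on 0 of the 32, beside 0.721% of all genes. When unstimulated replicate 1 is left out, *Ptk2* joins the 3, and the 4 genes stand beside 3.52% of all genes. In covered length, both stimulated lists lay above both unstimulated lists for 5 genes, *Sgca*, *Tln1*, *Tln2*, *Ank1* and *Sptb*, beside 5.23% of all genes and 2.74 genes of like length. The reverse held for 0 genes, beside 1.51% of all genes. Against unstimulated replicate 2 alone, both stimulated values were higher for these 5 and *Ptk2*, beside 5.81% of all genes, and lower for 4, *Sgcd*, *Itga7*, *Vcl* and *Plec*, beside 17.4%. A peak in all 4 lists was found on 8 genes, beside 4.30% of all genes and 6.87 genes of like length. Without unstimulated replicate 1, the other 3 lists all had a peak on 12 genes, beside 9.48% of all genes. The counts without unstimulated replicate 1 were not set beside genes of like length. Long genes collect more peaks, so the distance of these counts from the share of all genes is not read as a trait of the costamere genes.

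**Figure D2:**
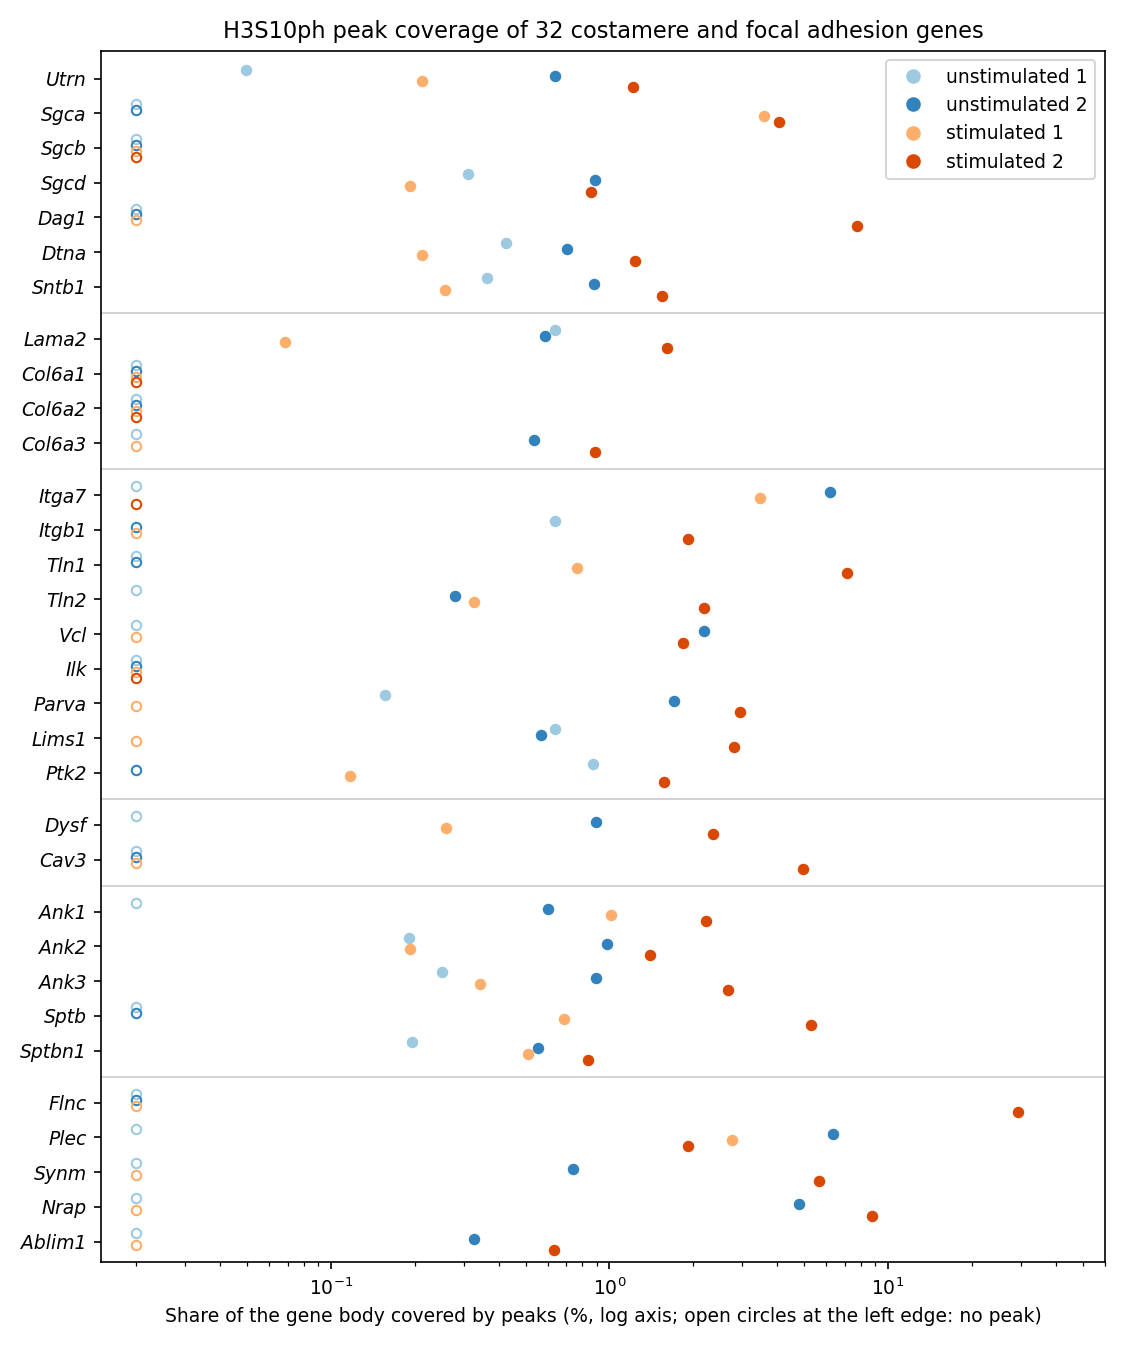
Share of each gene body covered by H3S10ph peaks (horizontal log axis, percent) for the 32 genes (vertical axis, grouped by role with grey lines between groups), 1 point per list. Open circles at the left edge are genes without a peak in that list. *Flnc* in stimulated replicate 2, at 29.3%, lies farthest to the right, and in *Sgca*, *Tln1* and *Sptb* only the stimulated points are filled.

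The dystrophin-glycoprotein complex spans the membrane and binds laminin outside and actin inside. *Sgca* encodes alpha-sarcoglycan, whose loss causes limb-girdle muscular dystrophy (chr11:94962791-94976327). It had 0 peaks in either unstimulated list, 1 peak over 484 bp in stimulated replicate 1 and 2 peaks over 551 bp in stimulated replicate 2. Stimulated and unstimulated lists did not overlap, and the peaks covered 3.58% and 4.07% of the gene. Among 300 genes of like length, 2.33%, 14%, 6% and 33.3% had a peak in the 4 lists. The second peak of stimulated replicate 2 also lies on *Hils1*, a gene that overlaps *Sgca*, and cannot be assigned to either.

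*Dag1* encodes dystroglycan, the laminin receptor of the complex (chr9:108204634-108263958). It had 0 peaks in both unstimulated lists and in stimulated replicate 1, and 5 peaks over 4573 bp in stimulated replicate 2. These covered 7.71% of the gene, and 1 of 300 genes of like length was covered further in that list. The widest of them was 2827 bp and lay 53.1 kb from the gene start, toward the 3′ end. *Dag1* was thus called in a single sample.

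The long genes of the complex had peaks everywhere. *Sgcd*, delta-sarcoglycan (chr11:46896253-47988969), held 5, 17, 5 and 15 peaks over 3383, 9674, 2103 and 9384 bp in unstimulated replicates 1 and 2 and stimulated replicates 1 and 2. Replicates 1 were low and replicates 2 high, whatever the condition. *Utrn*, the dystrophin relative utrophin (chr10:12382188-12869365), held 1, 6, 1 and 10 peaks over 241, 3103, 1032 and 5893 bp. *Dtna*, alpha-dystrobrevin on chromosome 18, held 2, 3, 2 and 4 peaks over 1036, 1719, 518 and 3031 bp. *Sntb1*, the adaptor beta-1-syntrophin (chr15:55636388-55906949), held 2, 4, 1 and 9 peaks over 983, 2374, 693 and 4185 bp. In *Dtna* and *Sntb1* stimulated replicate 1 had the shortest covered length of the 4 lists and stimulated replicate 2 the longest. *Sgcb*, beta-sarcoglycan, had no peak in any list. The 7 genes of this group together held 10, 30, 10 and 45 peaks, where genes of like length would hold 7.39, 25.6, 8.35 and 32.3.

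In the matrix group, *Lama2* encodes the alpha-2 chain of muscle laminin, the ligand of dystroglycan (chr10:26980036-27619758). It held 7, 10, 1 and 15 peaks over 4071, 3754, 436 and 10277 bp, so that stimulated muscle gave both the lowest and the highest value. In unstimulated replicate 1, 10 of 300 genes of like length were covered further. Collagen VI anchors the basement membrane to the interstitial matrix and is made mainly by fibroblasts in muscle. *Col6a3* had 1 peak over 417 bp in unstimulated replicate 2 and 1 over 690 bp in stimulated replicate 2. *Col6a1* and *Col6a2* had no peak in any list, and with *Sgcb* and *Ilk* they make up the 4 genes without any peak, where 41.6% of all genes and 4.09 genes of like length had none. Of 4 fibroblast marker genes, 0, 2, 1 and 1 had a peak in the 4 lists, beside 0.417, 1.62, 0.657 and 2.27 for genes of like length.

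Integrins connect the matrix to talin and vinculin and through them to actin. *Tln1* encodes talin-1, which binds and activates integrins (chr4:43531519-43562691). It had 0 peaks in both unstimulated lists, 1 over 239 bp in stimulated replicate 1 and 3 over 2219 bp in stimulated replicate 2. The peak of stimulated replicate 1 had a −log10 p of 3.23 and covered an exon 22.9 kb from the gene start, and the nearest peak of stimulated replicate 2 lay at 24.1 kb without touching it. *Tln2* encodes talin-2, the isoform that predominates in mature muscle (chr9:67217087-67559703). It held 0, 1, 2 and 9 peaks over 0, 952, 1121 and 7467 bp. Both stimulated values exceeded both unstimulated values, stimulated replicate 1 only narrowly.

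*Ptk2* encodes focal adhesion kinase (chr15:73205102-73423280). It held 2 peaks over 1898 bp in unstimulated replicate 1, 0 in unstimulated replicate 2, 1 over 255 bp in stimulated replicate 1 and 7 over 3422 bp in stimulated replicate 2. Its call in unstimulated muscle rested on the sample that stands apart. *Itga7*, the muscle laminin-binding integrin alpha-7, held 0 peaks in unstimulated replicate 1, 3 over 1520 bp in unstimulated replicate 2, 2 over 850 bp in stimulated replicate 1 and 0 in stimulated replicate 2, so each condition had 1 sample without a call. *Vcl*, vinculin, had 4 peaks over 2278 bp in unstimulated and 5 over 1906 bp in stimulated replicate 2, and none in replicates 1. Of the 5, 1 peak has only 54 bp in *Vcl* and also lies on the neighbouring *Ap3m1*, and 1 peak of *Itga7* in unstimulated replicate 2 also lies on *Mettl7b*. *Itgb1*, the integrin beta-1 chain that pairs with alpha-7, had 1 peak in unstimulated replicate 1 and 1 in stimulated replicate 2. *Parva* and *Lims1* encode parvin and PINCH, which form a complex with integrin-linked kinase, and were called in both unstimulated lists but in only 1 stimulated list. Without unstimulated replicate 1, which gave 1 peak on each, both were called in 1 list per condition. *Parva* held 1, 4, 0 and 7 peaks and *Lims1* held 1, 1, 0 and 4. *Ilk*, the kinase itself and the shortest gene of the 32 at 6.3 kb, had none in any list. The 9 genes of the group held 5, 13, 6 and 36 peaks, beside 4.18, 15.2, 5.42 and 24.1 for genes of like length.

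Membrane repair and caveolae were represented by a pair of genes. *Dysf* encodes dysferlin, which reseals torn membrane (chr6:84008590-84211060), and held 0, 4, 1 and 7 peaks over 0, 1814, 527 and 4787 bp. Stimulated replicate 1 lay between the unstimulated values. *Cav3*, the muscle caveolin, had 1 peak over 660 bp in stimulated replicate 2 and none in the other lists. With *Dag1* and *Flnc* it makes up the 3 genes called in stimulated replicate 2 alone, as were 16.5% of all genes and 3.52 genes of like length.

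Ankyrins and spectrins form the membrane skeleton under the sarcolemma. *Sptb* encodes beta-spectrin (chr12:76580488-76710547) and had 0 peaks in both unstimulated lists, 2 over 895 bp in stimulated replicate 1 and 7 over 6868 bp in stimulated replicate 2. Stimulated and unstimulated lists did not overlap. In unstimulated replicate 2, 83.3% of genes of its length had a peak, and in stimulated replicate 2 only 1 of 300 was covered further. The widest peak, of 2807 bp, lay in an intron 95.0 kb from the gene start.

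*Ank1* encodes ankyrin-1, whose small muscle isoform sits in the sarcoplasmic reticulum (chr8:22974844-23150497). It held 0, 3, 2 and 8 peaks over 0, 1055, 1778 and 3924 bp, and both stimulated values lay above both unstimulated values. The highest −log10 p among them, 3.66, belonged to an intronic peak 69.7 kb from the start in stimulated replicate 2. *Ank3*, ankyrin-G (chr10:69398773-70027438), held 2, 12, 5 and 22 peaks over 1575, 5626, 2155 and 16804 bp, and 2 of 300 genes of like length were covered further in stimulated replicate 2. *Ank2*, ankyrin-B, which places dystrophin and dystroglycan at the costamere (chr3:126921612-127499350), held 2, 12, 2 and 14 peaks over 1104, 5653, 1117 and 8077 bp. *Sptbn1*, beta-2-spectrin (chr11:30099395-30268175), held 1, 1, 1 and 5 peaks over 330, 939, 860 and 1414 bp. In *Ank2*, *Ank3* and *Sptbn1* stimulated replicate 1 was below unstimulated replicate 2, so the conditions overlapped. The 5 genes held 56 peaks in stimulated replicate 2, beside 29.1 for genes of like length, and 5, 28 and 12 in the other lists, beside 6.47, 22.8 and 7.44.

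The 5 cytoskeletal linkers were covered over 0%, 1.78%, 0.361% and 4.06% of their length in unstimulated replicates 1 and 2 and stimulated replicates 1 and 2. They held 0, 12, 3 and 25 peaks, beside 1.89, 7.29, 2.4 and 11 for genes of like length. Without *Flnc*, the other 4 held 12 peaks in unstimulated replicate 2, beside 6.84, and 17 in stimulated replicate 2, beside 10.2, and were covered over 1.89% and 2.43%. *Flnc* encodes filamin C, which crosslinks actin at the Z-disc and costamere and gathers at sites of myofibril damage (chr6:29433256-29461883). It had 0 peaks in both unstimulated lists and in stimulated replicate 1, and 8 peaks over 8385 bp in stimulated replicate 2. These covered 29.3% of the 28.6 kb gene spread from its start to about 24.1 kb, and 0 of 300 genes of like length were covered further. The first, chr6:29433418-29435266, had a fold enrichment of 2.90 and a −log10 p of 4.60, rank 47 of the 40683 peaks of that list, and contains the printed sequence. The −log10 of its q-value was 0.87, and no peak on the costamere genes reached 1.3. The call was made in 1 stimulated sample only, so it has no replicate.

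*Plec* encodes plectin, which joins desmin filaments to the Z-disc and membrane (chr15:76170974-76232574) and was covered furthest in unstimulated replicate 2. It held 0, 4, 3 and 2 peaks over 0, 3900, 1702 and 1183 bp, and in unstimulated replicate 2, 1 of 300 genes of like length was covered further. *Nrap*, a nebulin-related protein of myotendinous junctions, held 5 peaks over 3356 bp in unstimulated and 8 over 6133 bp in stimulated replicate 2 and none in replicates 1. In both of those lists 0 of 300 genes of its length were covered further, so a high coverage was already present without contraction. *Synm*, the intermediate filament protein synemin, held 1 and 3 peaks and *Ablim1*, an actin-binding LIM protein, 2 and 4 in unstimulated and stimulated replicate 2, and neither had any in replicates 1. All 4 peaks on *Synm* also overlap the neighbouring *Ttc23*.

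**Figure D3:**
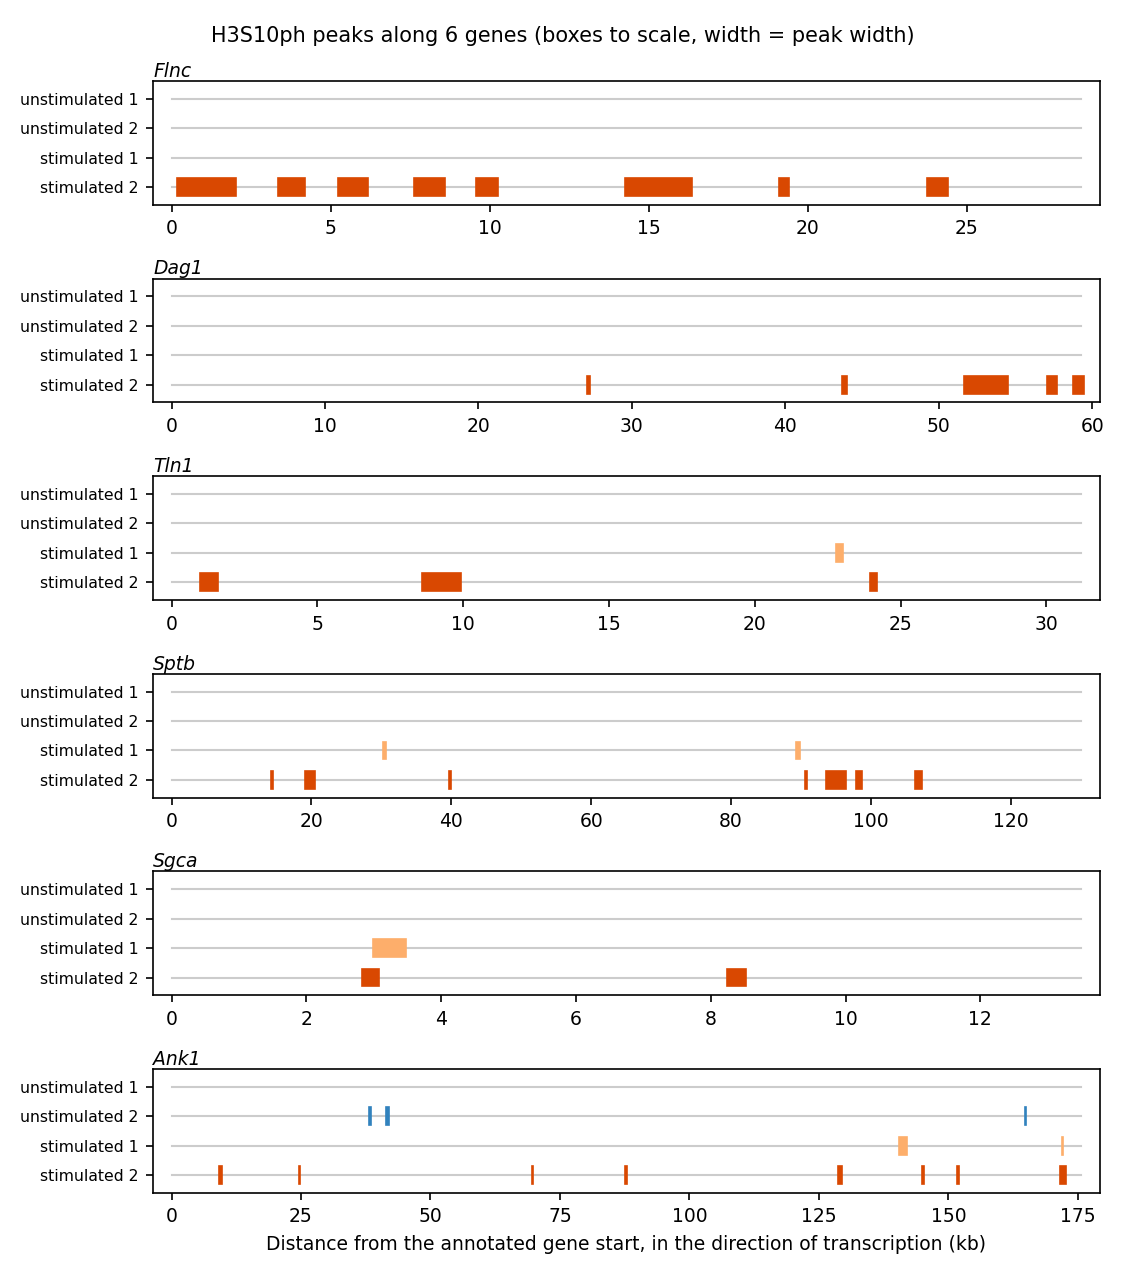
Position of H3S10ph peaks along 6 genes, with distance from the annotated gene start in kb (horizontal axis) and 1 track per list (vertical axis); boxes are drawn to scale. *Flnc* carries 8 boxes in stimulated replicate 2 and none elsewhere, and boxes of both stimulated replicates overlap in *Sgca* near 3 kb and in *Ank1* near 172 kb.

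Peaks of different samples seldom fell on the same place of a gene. Of the 16 genes with a peak in both stimulated lists, 2 had peaks that overlapped. In *Sgca* the overlap was 82 bp (chr11:94973252-94973333), next to the start of a transcript, with folds of 2.22 and 2.07. In *Ank1* it was 253 bp (chr8:23146788-23147040), in an intron near the 3′ end, with folds of 2.33 and 2.01. The miRNA gene *Mir486*, which lies within *Ank1*, was 4106 bp and 3796 bp away from the nearest peak of stimulated replicates 1 and 2 and 2714 bp from that of unstimulated replicate 2. Genes of like length would give 0.843 such places. The unstimulated lists shared 0 places, with 0.447 for genes of like length, although 10 genes had a peak in both. Between the long lists of the conditions, unstimulated and stimulated replicate 2, peaks overlapped at 4 places, in *Sgcd*, *Sntb1*, *Ank2* and *Sptbn1*, beside 2.43. Unstimulated replicate 2 and stimulated replicate 1 shared 1 place, in *Lama2*, beside 0.783. Unstimulated replicate 1 shared 0 places with either stimulated list, beside 0.19 and 0.71.

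Most peaks lay in introns. Within 1000 bp of an annotated transcription start of the gene there were 0, 8, 4 and 11 peaks, or 0%, 8.16%, 12.1% and 5.91% of the peaks on these genes. These windows make up 4.24% of the 32 gene bodies and 0%, 7.08%, 11.5% and 3.64% of the length under their peaks. In other genes they make up 7.48%, and 5.38%, 7.54%, 9.56% and 12.4% of the length under peaks, so stimulated replicate 2 lay below the share of the gene bodies in the costamere genes and above it in other genes. At the start of the gene itself there were 2, both in stimulated replicate 2, on *Flnc* and *Tln1*. Exons make up 5.58% of the 32 gene bodies but 7.35%, 9.31%, 15.6% and 10.6% of the length under peaks. In other genes exons make up 9.18%, and 9.74%, 10.6%, 11.9% and 12.9% of the length under peaks. Coverage was thus richer in exons than the gene bodies in every list of both conditions.

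**Figure D4:**
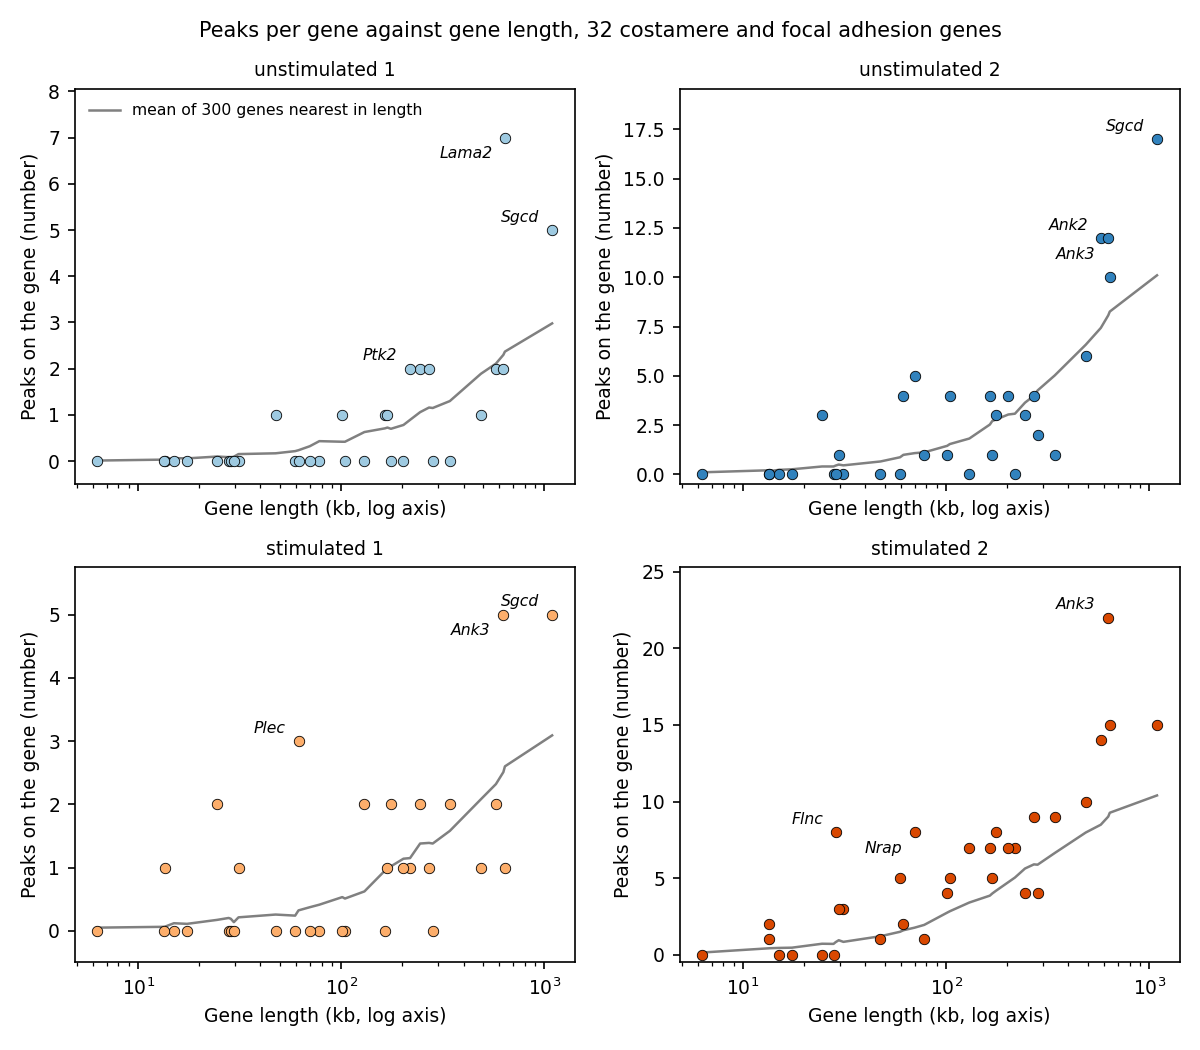
Number of H3S10ph peaks on each of the 32 genes (vertical axis) against gene length (horizontal log axis, kb) in the 4 lists; the grey line is the mean of the 300 genes nearest in length. *Flnc* and *Nrap*, with 8 peaks each, and *Ank3*, with 22, stand clear of the line in stimulated replicate 2.

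The peaks on these genes had low −log10 p values, and the contrast with other genes was kept at stricter thresholds in stimulated replicate 2 while the calls on single genes were not. The median −log10 p of the peaks was 2.53, 2.17, 2.57 and 2.22, close to the 2.57, 2.19, 2.62 and 2.20 of the whole lists. At a −log10 p of at least 2.5, stimulated replicate 2 held 40 peaks on the 32 genes, 2.06 times genes of like length, and the other lists were at 1.05 to 1.32 times. With every list cut to its best 8546 autosomal peaks it held 51, or 2.15 times, and the others were at 1.03 to 1.18 times. The genes found in both stimulated and neither unstimulated list at 2.5 were *Dysf*, *Ank1* and *Sptb*, beside 2.00% of all genes. With lists of equal length *Sptb* alone was left, beside 1.83% of all genes. At a −log10 p of at least 3 there were 0, beside 0.332% of all genes. Without unstimulated replicate 1, *Sptbn1* joined the 3 genes at 2.5, beside 2.74% of all genes, *Sptb* was again alone with lists of equal length, beside 2.82%, and there were 0 at 3, beside 0.481%. *Sptb* was thus the one gene found in stimulated muscle alone under all these rules but those at 3. Its peaks in the stimulated lists lay at different places and did not overlap. A single gene of the 32 is close to the shares of all genes, and these counts were not set beside genes of like length. They are therefore not read as a trait of *Sptb* or of the costamere genes.

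The other genes of these pathways were counted in a list of 88 autosomal genes. A peak lay on 20, 55, 30 and 71 of them in the 4 lists, where genes of like length would give 20.8, 49.6, 27.5 and 59.9. They held 295 peaks in stimulated replicate 2, beside 189. Both stimulated lists and neither unstimulated list had a peak on 6, beside 3.37 genes of like length. Among them were *Lamc1*, the laminin gamma-1 chain, *Fermt2*, the integrin activator kindlin-2, *Actn4*, an actin crosslinker, and *Des*, the muscle intermediate filament desmin. Of these *Lamc1* had 569 bp covered in stimulated replicate 1 and 4199 bp in stimulated replicate 2, and *Des* 264 and 280 bp. The mirrored pattern was met by 1, beside 0.917 genes of like length, namely *Pomt2*, which starts the glycan chain of dystroglycan, with 634 and 331 bp in unstimulated replicates 1 and 2. Without unstimulated replicate 1 the counts were 9 and 9, beside 4.51 and 7.04 genes of like length.

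The 20 marker genes of other cell types held fewer peaks than genes of their length in every list, with 0, 9, 4 and 19 peaks, beside 4.54, 15.5, 5.3 and 27.7. Of 4 macrophage and blood genes 0, 0, 0 and 3 had a peak in unstimulated replicates 1 and 2 and stimulated replicates 1 and 2, beside 0.91, 2.02, 1.06 and 2.48 for genes of like length. They were covered over 4415 bp in stimulated replicate 2, beside 4186 bp, with *Ptprc* in the lead, and *Cd68* was at 0 throughout. Of 4 endothelial genes 0, 2, 1 and 4 had a peak, beside 0.98, 2.66, 1.22 and 3.16, and they were covered over 0, 733, 93 and 4996 bp, led by *Pecam1*. Of 4 smooth muscle and pericyte genes 0, 3, 2 and 0 had a peak, beside 0.56, 1.92, 0.853 and 2.52, so that these genes were at 0 in the list where the costamere genes were highest. The satellite cell genes *Pax7* and *Myf5* had a peak on 0, 1, 0 and 1 of them. The part of these cells, and of the longer list, in the high values of stimulated replicate 2 on costamere genes was not tested.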

How the data were processed

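ChIP-seq for H3S10ph was analysed from 4 samples, 2 per condition. According to the study's methods, the authors mapped reads to mm10, removed multi-mapping reads, reduced the replicates to an equal number of reads and called broad peaks per sample with MACS2 2.1.1 against input. The deposited lists give for each peak a fold enrichment (a ratio over background), the −log10 of its p-value and the −log10 of its q-value; the deposited score was not used. Although the methods give a p cutoff of 0.001, the lists reach a −log10 p of about 2. The lists hold no read counts, so no interval on a peak value can be given; shares of genes or peaks were judged by exact binomial intervals, which cover counting error only.

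Peaks were assigned to gene bodies of GENCODE M21 by an overlap of at least 1 bp with Python 3.11.15 (pandas 2.3.3, numpy 2.4.6), checked against bedtools 2.31.1 on simulated data. Sequences were read with samtools 1.23.1. All 32 genes are accounted for; those with a peak in both stimulated or in all lists, or in one condition only, are given in full. Some genes of the pathway and marker lists are counted but not reported by name here. The members, lists and rules were chosen with earlier results of these data known. Alternatives were stricter p and q thresholds, lists of equal length, at least 50% of the peak inside the gene, gene bodies extended by 5000 bp, peaks within 1000 bp merged, other numbers of length neighbours, a wider start-site window, leaving out each replicate, and ratios between samples of the same number.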

Additional observations from a re-analysis of the deposited data

How the results depend on the processing

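Of 139 values recomputed under the alternatives, 109 stayed within the spread between replicates, the counting interval or 1.5 times the count. A further 24 moved and 6 reversed. Ratios and shares over genes of like length counted as reversed when they crossed 1, and other values were not checked for direction. Some of the 109 could not change, such as genes in both stimulated lists when an unstimulated list was left out. The spread was also wide, from −0.654 to 4.76 for the covered-length ratio, so that a value of 4.44 counted as within it. The tally is therefore no measure of stability. Without stimulated replicate 2, the peak ratio (1.75) fell to 0.528 and the covered-length ratio (2.05) to 0.49. Leaving out single replicates gave ranges of 1.06 to 1.83 for the ratio of genes with a peak. The ranges were 0.528 to 4.06 for peaks and 0.49 to 4.44 for covered length. Genes with a peak in every stimulated list that was left numbered 16 to 27. Those in stimulated muscle alone numbered 3 to 7 and those in unstimulated muscle alone 0 to 2. With all 4 lists these counts were 3 and 0, beside 2.88% and 0.721% of all genes. Leaving out a list makes such a rule easier to meet. The shares of all genes for the 7 and the 2 were not computed, so neither is read as a result about the 32 genes. The highest ratios and the count of 7 came without unstimulated replicate 2. The 27 came without stimulated replicate 1 and is the count of stimulated replicate 2 by itself, beside 44.6% of all genes. With both stimulated lists present, 16 genes had a peak in both, beside 13.0% of all genes. At a −log10 p of at least 2.5, genes in both stimulated lists numbered 9, beside 4.56% of all genes, and shared stimulated places 0. The share of genes with a peak over genes of like length was 1.36 in unstimulated and 1.56 in stimulated replicate 2. With equal list length these were 9, 0, 1.32 and 1.57, the 9 genes beside 5.72% of all genes. Neither count of 9 was set beside genes of like length, and long genes collect more peaks. In that setting 1 gene was in stimulated muscle alone, beside 1.83% of all genes. With −log10 p at 3 or more, the gene ratio was 3 and the covered-length ratio 5.31. These ratios rest on 2 and 1 genes in unstimulated and 3 and 6 in stimulated replicates 1 and 2. Of all genes, 2.2%, 1.9%, 3.84% and 3.38% had a peak there. The covered lengths were 1.0, 0.3, 1.2 and 5.3 kb, most of it in stimulated replicate 2. At that threshold 0 genes were in both stimulated lists, beside 0.586% of all genes, and 0 in stimulated muscle alone, beside 0.332%. Shared places were also 0. The shares over like length were then 0.846 and 0.509 in unstimulated replicates 1 and 2 and 0.724 and 1.89 in stimulated replicates 1 and 2. Start-site shares were 0% in unstimulated replicate 2, 0% in stimulated replicate 1 and 12.5% in stimulated replicate 2. A start-site window of 5000 bp gave 19.4% and 22% in unstimulated and stimulated replicate 2. The cause of these shifts was not tested. No peak on the 32 genes reached a −log10 q of 1.3, so that setting gave no value. Ratios within replicate numbers (a replicate block) were 1.38, 1.52 and 1.58 for genes, peaks and covered length and changed no direction; no label ties a number to shared animals. The deviations of same-numbered samples from their condition means correlated at 0.40 over the 32 genes and at 0.49 over all 20807, and replicate 2 had the longer list in both conditions.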

Other observations

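*Dmd*, the gene of dystrophin itself, lies on chromosome X and was therefore not among the 32 autosomal genes. It held 23 peaks over 13831 bp in unstimulated replicate 1 and 0 in the other 3 lists. The X-linked *Flna*, filamin A, and *Itgb1bp2*, the costamere chaperone melusin, had 0 peaks in all 4 lists. In unstimulated replicate 1, the list with 522 peaks on chromosome X, peaks covered 0.613% of the 2257 kb of *Dmd*, beside 0.249% of the 32 genes together and 0.203% of all autosomal protein-coding genes. The most covered of the 32 in that list was *Ptk2*, at 0.87%.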
